A study of Bos taurus and Ovis aries and Capra hircus with 27 samples.

Results

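The goat RING finger proteins described here were 127 gene models of 22131 in the goat expression table. Their proteins were found by a spacing of amino acids alone, without use of any expression value. A member had 7 cysteines and 1 histidine in the order of a RING finger, in which cysteine pairs separated by 2 residues flank a loop of 9 to 39 residues, a cysteine, 1 to 3 residues, a histidine, 2 to 3 residues, and a second loop of 4 to 48 residues. Models with a copy suffix were left out (4 of 131 that matched), as were proteins with 3 or more C2H2 zinc fingers, of which there were 0. A protein sequence was used for 18215 goat models, and the other models could not be searched. A match is a statement on residues and does not show that the stretch folds as a RING finger.

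The series described here held 27 libraries of messenger RNA from cattle, goat and sheep, each species being sampled in heart, liver and kidney. It is part of a larger study with more species and tissues, which compared animals of highland populations with lowland ones. The altitude group of the goats is not stated here and was not used. The 9 goat libraries used here were 3 from heart, 3 from liver and 3 from kidney. The paper states that the 3 goat heart samples also appear under another set of sample records. Their columns are named in another form than those of liver and kidney. Whether heart was prepared or processed apart from the other tissues was not tested, and such a difference could not be told apart from tissue. They came from goats of the strain that the labels call indigenous, at an age of about 3 years, with no treatment, and each tissue was a bulk sample. The study's methods describe 3 adult females that were not related to each other, with several tissues taken from each, but the labels do not say which animal a library number stands for.

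A RING finger is a small domain in which cysteines and a histidine hold a pair of zinc ions in a crossed arrangement. Most proteins that carry one are ubiquitin ligases, which bring a ubiquitin-loaded enzyme to a target protein and so mark the target for degradation or change its activity. In heart muscle, RING ligases of the MuRF group bind the sarcomere and take part in the turnover of its proteins. In liver, the RING ligase MYLIP lowers the LDL receptor, and in kidney, cullin ligases, which work through a small RING subunit, set the level of kinases that control salt transport. Which goat model corresponds to which of these proteins is not given here, because the files pair no identifier with a gene name. Members are therefore described by identifier or by scaffold and protein length, and by other sequence features that the selection did not use. No amino acid sequence is printed. The usual muscle, hepatocyte and tubule markers could not be looked up for the same reason, so the tissue labels were not checked against them.

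Of the 127 members, 60 carried a cattle protein identifier, 56 a human one, and 11 were predicted models. The median protein was 487 residues long, with a range of 82 to 3976, against 337 over the 17138 goat models with a protein and no copy suffix. Cysteine made up 4.00% of residues in the median member and 2.05% in the median model, a difference that the selection itself favours. The first loop was 11 residues long in 67 members, and a single residue separated the third cysteine from the histidine in 116. The centre of the match lay in the N-terminal part of the protein in 67 members, in the middle part in 20 and in the C-terminal part in 40, when each protein was divided into 3 parts of equal length. The plot of match position against protein length shows members at either end of the protein and fewer between.

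**Figure D1:**
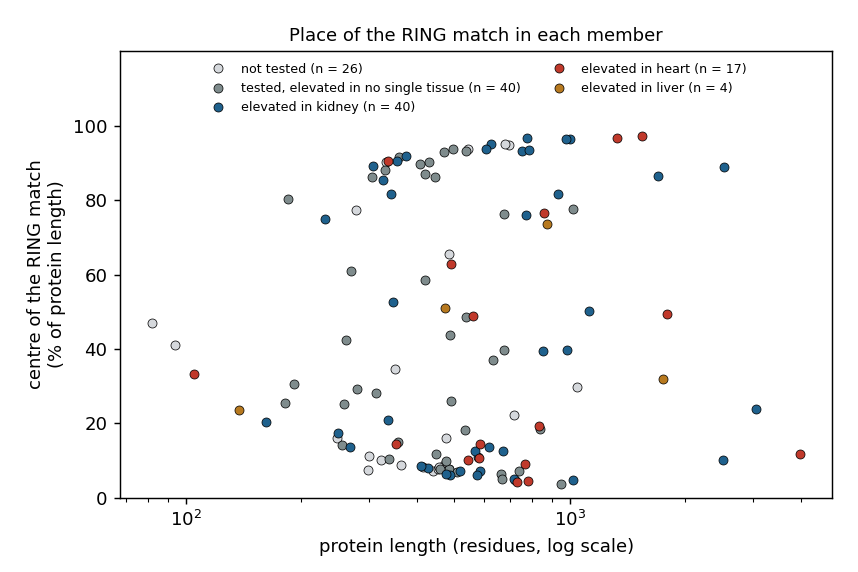
Centre of the RING match as a percentage of protein length (vertical axis) against protein length in residues (horizontal axis, log scale), 1 point for each of the 127 members. Colours give the tissue in which a member was elevated over both others, and the 67 members with an N-terminal match form the dense lower band.

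Other domain expressions divided the members further. A B-box, the second zinc-binding domain of the TRIM family of RING ligases, was matched in 24 members, and only 40 of the 17138 models matched it at all. An in-between-RING domain, which in RBR ligases follows the RING finger that binds the ubiquitin-loaded enzyme, was matched in 3. The BIR expression, after the domain by which inhibitor of apoptosis proteins bind caspases, was matched in 9 members, 3 of which matched it 3 times. The BIR expression is short and was matched in 266 of all models, so a single match is weak. Repeated matches do not show that the domain is present either, and no member is identified here as such an inhibitor. A CCCH finger, a zinc finger found in RNA-binding proteins, was matched in 6 members, and a PHD finger, which reads histone tails in chromatin proteins, in 3. A hydrophobic stretch long enough to span a membrane was found in 31 members, 24.4% of them against 33.3% of all models. In 5 members the RING expression matched more than once.

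Values in the goat table were log2(FPKM + 1), where FPKM is the number of fragments divided by transcript length and library size. Levels are given below as FPKM with the SD of 3 libraries, which is a level per length. Differences are given on the log2(FPKM + 1) scale with their standard errors, a scale that understates the change of low genes. The depth of the libraries is unknown, since no counts were used. Summed FPKM ranged from 574638 to 828807 per library. In bulk tissue, fewer cells of a type and less RNA per cell cannot be told apart.

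RING finger members were widely expressed. In all 9 libraries, 82 of 127 members (64.6%) exceeded 0.5 FPKM, against 45.3% of the 17138 models. Within a library, between 88 and 97 members passed that level (69.3% to 76.4%), with 94 to 96 in heart, 88 to 89 in liver and 94 to 97 in kidney. Of all models in the goat table, 52.7% to 58.4% passed it in a library. Among members above 0.5 FPKM in all libraries, the median of the mean level was 7.15 FPKM in heart, 6.43 in liver and 13.4 in kidney. The same medians over all 7759 such models were 9.65, 9.03 and 15.8 FPKM. The members together took between 0.118% and 0.346% of the summed FPKM of a library.

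At the other end, 26 members did not exceed 0.5 FPKM in 3 or more libraries and were not tested, and 9 of these were listed at 0 in all 9 libraries. Of the 26, 19 passed 0.5 FPKM in no library and 7 in 1 or 2 libraries. The highest value in any of them was 2.94 FPKM. They included 11 of the 24 B-box members and 9 of the 11 predicted models. An exact 0 in these tables can be a failed estimate, so such members are said only to be listed at 0. Low models were less frequent among the members than in the table. Models listed at 0 in all libraries were 7.09% of the 127 members and 20.3% of the 17138 models. Models above 0.5 FPKM in no library were 15.0% and 31.3%.

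Members that lay close together in the genome included several of these low models. Within 200000 bases of another member lay 14 members in 6 groups, on scaffolds numbered as in the deposited goat protein file, which names no genome build. All 3 neighbours on scaffold 615 (766459 to 886845) were listed at 0 in every library. Of the pair on scaffold 242 (29349 to 58137), one was listed at 0 in every library and the other averaged 0.0469 FPKM in liver, its highest tissue. By contrast, the pair on scaffold 1062 (44856 to 94740) held the member with the highest level in kidney.

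**Figure D2:**
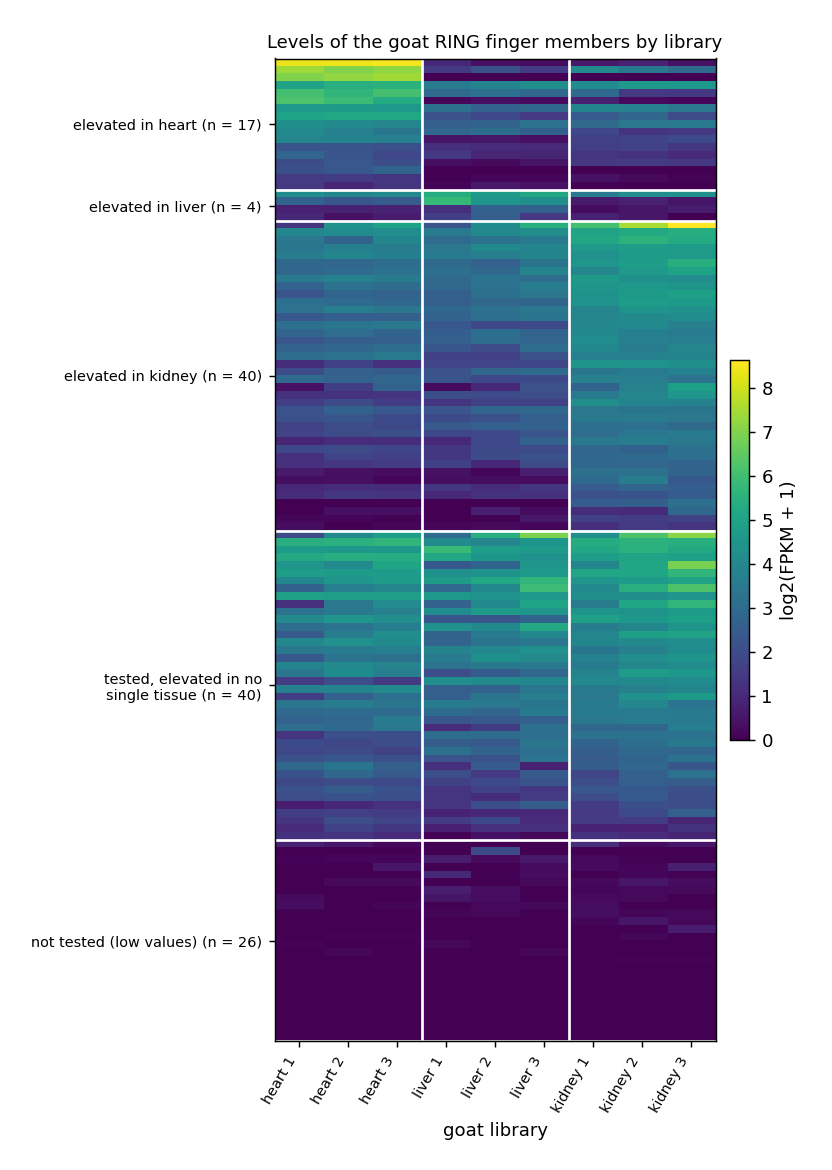
Level of each of the 127 members, as log2(FPKM + 1), in each of the 9 goat libraries (columns). Rows are grouped by the tissue in which the member was elevated over both others (17 heart, 4 liver, 40 kidney), then 40 tested members elevated in no single tissue and 26 that were not tested, and are ordered by mean level within a group.

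Tissues were compared in pairs, to ask which members differed between them beyond the spread of libraries. The test was limma's moderated test on all 13634 goat models that exceeded 0.5 FPKM in at least 3 libraries, with Benjamini-Hochberg adjustment over all of them and a call at 0.05. It covered 101 members.

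Between heart and liver, 46 of the 101 members were called (45.5%), where 49.2% of all tested models were. Shares and backgrounds are of all genes tested, not of those called. Heart was higher for 31 members (30.7%, background 29.6%) and liver for 15 (14.9%, background 19.6%). The median difference was 0.06 over the members and 0.10 over all models. The members' share lay near that of the whole table in heart and a little below it in liver, and neither difference was tested.

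Between heart and kidney, 67 members were called (66.3%), against a background of 63.2%. Higher levels were found in heart for 19 members (18.8%, background 17.9%) and in kidney for 48 (47.5%, background 45.3%). The median difference was −0.74 over the members and −0.55 over all models, so the shift towards kidney was shared by the table as a whole. Between liver and kidney, 65 members were called (64.4%, background 65.0%). Liver was higher for 6 (5.94%, background 13.4%) and kidney for 59 (58.4%, background 51.6%). The median difference was −0.91 over the members and −0.69 over all models.

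These splits depended on how the libraries were scaled. Median ratio scaling, which sets the typical gene to the same level in every library, moved the median of all models by over 0.1 on the log2 scale in each comparison, to −0.04, −0.04 and −0.01. The members' medians then became −0.04, −0.11 and −0.12. Between heart and liver, 28 members were then higher in heart (27.7%, background 27.0%) and 22 in liver (21.8%, background 26.8%). In the comparison of heart with kidney, 29 rose above the other tissue in heart (28.7%, background 29.0%) and 33 in kidney (32.7%, background 29.1%). Between liver and kidney, 18 were higher in liver (17.8%, background 26.6%) and 28 in kidney (27.7%, background 25.3%). Of the calls on deposited values, 43 of 46, 52 of 67 and 34 of 65 were also called in the same direction after this scaling, and 0 were called in the opposite one. These shares were not taken over all models.

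**Figure D3:**
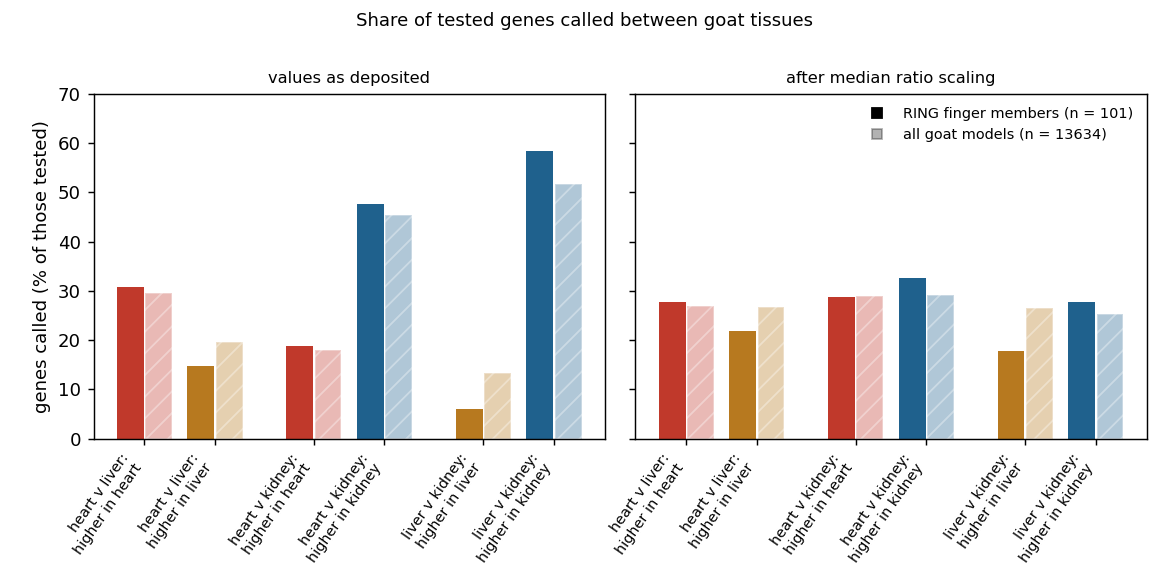
Percentage of tested genes called higher in the named tissue (vertical axis) for each pair of goat tissues, on deposited values (left) and after median ratio scaling (right). Solid bars are the 101 RING finger members tested, and pale hatched bars are all 13634 goat models. The kidney bars are the tallest on deposited values, with 58.4% of members higher in kidney than in liver, and fall to 27.7% after scaling.

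A member was taken as elevated in a tissue when it was called higher there in both comparisons. Of the 101 tested members, heart had 17 such members (16.8%, background 14.5%), liver 4 (3.96%, background 9.59%) and kidney 40 (39.6%, background 34.2%). In all 61, every library of that tissue lay above every library of the others, as it did in 96.4% of all models elevated in a tissue. Of the 61, 7 had passed the filter on low values only through the tissue in which they were then elevated, 3 in heart and 4 in kidney, so that they had to differ. With the library number as a block, 17 members were elevated in heart (background 15.8%), 6 in liver (background 10.6%) and 50 in kidney (background 38.5%). The remaining 40 tested members included 9 that were lowest in liver with heart and kidney not told apart, 7 that were lowest in heart, 9 with a single comparison called and 15 with none. Shares of these patterns over all models were not taken, so the counts only describe the members. After median ratio scaling, heart had 22 elevated members (background 19.5%), liver 13 (background 15.4%) and kidney 18 (background 16.6%). The elevated members were kept unequally by that scaling, with 16 of the 17 in heart, 4 of the 4 in liver and 18 of the 40 in kidney. The table as a whole moved in the same directions. Elevated models went from 1982 to 2661 in heart, from 1307 to 2105 in liver and from 4669 to 2261 in kidney. The share kept was not taken over all models.

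The heart members had the highest mean level in a tissue and the largest differences. GOAT_ENSP00000352028, a protein of 728 residues with the RING match at residues 12 to 52 and 1 hydrophobic stretch, is encoded on scaffold 1269 from 760822 to 891383 on the forward strand. It measured 331, 339 and 363 FPKM in the heart libraries, 0.974, 0.264 and 0.230 in liver and 0.515, 0.790 and 0.320 in kidney. Heart stood far above both other tissues, which overlapped. It was higher in heart than in liver by 7.89 ± 0.22 (limma, adjusted p = 7.0e-09) and than in kidney by 7.82 ± 0.22 (adjusted p = 1.6e-08).

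GOAT_ENSBTAP00000037722 encodes 353 residues on scaffold 130 (377667 to 390357, forward strand), with the match at residues 23 to 79 and 1 hydrophobic stretch. Its heart levels were 126, 151 and 167 FPKM, and all liver and kidney libraries listed it at 0, so no fold change is given. The member most like it in sequence, 545 residues long on scaffold 75, was 62.7% identical over 327 aligned residues. That member had 56.8 ± 17.2 FPKM in heart, 0.186 ± 0.0785 in liver and 0.312 ± 0.317 in kidney. It was higher in heart than in liver by 5.56 ± 0.26 (adjusted p = 1.5e-07) and than in kidney by 5.44 ± 0.26 (adjusted p = 2.8e-07). Over the 9 libraries, both members followed GOAT_ENSP00000352028 with r = 0.998 and r = 0.992, a description over libraries of 3 tissues in which a single tissue sets the value.

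A further member had values above 0 in heart libraries alone. It was a predicted model of 105 residues on scaffold 18 (2460600 to 2460917, forward strand), and had 3.29, 4.04 and 5.96 FPKM in heart. Its match began at residue 2 and held a second loop of 40 residues, so it is among the shorter and less typical members.

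The longest of the highly expressed heart members encodes 1795 residues on scaffold 1497 (814008 to 826826, forward strand), with the match at residues 865 to 912, 1 BIR match and 2 hydrophobic stretches. It had 147 ± 21.1 FPKM in heart, 2.32 ± 0.975 in liver and 11.1 ± 4.72 in kidney. Heart exceeded liver by 5.50 ± 0.31 (adjusted p = 5.5e-07) and kidney by 3.67 ± 0.31 (adjusted p = 9.6e-06), and kidney exceeded liver by 1.83 ± 0.31 (adjusted p = 0.00074). The member next to it on the scaffold (491 residues, 930094 to 961849, reverse strand), one of the 3 with an in-between-RING match, was also elevated in heart. It had 39.7 ± 6.93 FPKM in heart, 14.3 ± 4.05 in liver and 21.8 ± 3.83 in kidney, a far smaller difference.

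Other members elevated in heart spanned a wide range of sizes. One of 1541 residues on scaffold 431, with the match close to its C-terminal end at residues 1472 to 1529, had 66.1, 50.7 and 66.5 FPKM in heart, 6.86, 7.96 and 6.17 in liver and 6.73, 1.69 and 1.72 in kidney. Kidney library 1 lay within the liver levels and the other kidney libraries below them. Its heart levels exceeded liver by 2.95 ± 0.38 (adjusted p = 0.00015) and kidney by 4.01 ± 0.38 (adjusted p = 1.9e-05).

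Among B-box members, 580 residues on scaffold 659 and 767 residues on scaffold 663 were the pair elevated in heart. The first had 33.4 ± 1.85 FPKM in heart, 2.67 ± 0.937 in liver and 4.62 ± 1.62 in kidney. The second had 13.6 ± 0.814, 0.376 ± 0.0852 and 2.42 ± 0.371 FPKM. Over the 17 members, the smaller of the differences from the other tissues ranged from 0.65 to 7.82, with a median of 1.19, and 8 members had at least 2. The 17 include the 3 that passed the filter through heart alone and so had to differ. Of those 3, GOAT_ENSBTAP00000037722 and the predicted model on scaffold 18 are among the 8. Levels in heart ranged from 1.36 to 344 FPKM with a median of 16.4.

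The 4 members elevated in liver were of unlike kinds. GOAT_ENSBTAP00000008785 encodes 871 residues on scaffold 160 (2049333 to 2168293, forward strand), with 2 RING matches, 1 BIR match and 6.31% cysteine. It measured 52.8, 22.0 and 18.7 FPKM in liver, 5.76, 3.92 and 4.54 in heart and 0.551, 0.728 and 0.406 in kidney. The tissues did not overlap, though liver library 1 was well above the others. Liver exceeded kidney by 4.22 ± 0.35 (adjusted p = 8.1e-06), and heart was below liver, with a difference of −2.35 ± 0.35 (adjusted p = 0.00039).

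GOAT_ENSBTAP00000036514 encodes 1747 residues on scaffold 606 (2610341 to 2971500, forward strand), with 7 RING matches and 10.9% cysteine. Its liver levels were 1.23, 5.44 and 5.48 FPKM, its heart levels 0.712, 0.728 and 0.831, and its kidney levels 0.221, 0.427 and 0.578. Liver library 1 was only a little above the heart libraries. Liver exceeded kidney by 1.69 ± 0.37 (adjusted p = 0.0030). In both of these members the first loop was long, at 30 and 39 residues, and the share of cysteine was above the members' median of 4.00%. Restricting the members to those with a single RING match left 2 members elevated in liver.

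Those other two had a single RING match. One, of 474 residues on scaffold 1356 with an in-between-RING match, had 39.9, 25.2 and 34.2 FPKM in liver, 17.8, 14.7 and 16.2 in heart and 11.1, 17.6 and 19.2 in kidney. It exceeded kidney by 1.01 ± 0.25 (adjusted p = 0.0057), and the difference of heart from liver was −0.96 ± 0.25 (adjusted p = 0.0099). The other, of 138 residues on scaffold 1525, had 2.97 ± 1.92 FPKM in liver, 0.632 ± 0.343 in heart and 0.393 ± 0.371 in kidney, with liver library 2 highest at 5.18.

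Some members were high in liver without standing above kidney. GOAT_ENSBTAP00000018136 encodes 359 residues on scaffold 1046 (1510689 to 1528890, reverse strand), with the match at residues 312 to 346, near the C-terminal end. It had 17.7, 16.5 and 14.6 FPKM in liver, 15.4, 16.6 and 17.2 in kidney and 1.85, 3.15 and 1.74 in heart. Liver and kidney overlapped fully and heart lay far below both. Heart differed from liver by −2.43 ± 0.20 (adjusted p = 8.0e-06) and from kidney by −2.45 ± 0.20 (adjusted p = 7.9e-06). After median ratio scaling the liver level was the higher one, by 0.83 (adjusted p = 0.012).

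Kidney had the most elevated members on deposited values. The largest differences belonged to GOAT_ENSBTAP00000039949, a B-box member of 519 residues on scaffold 1062 (44856 to 55131, reverse strand), with the match at residues 15 to 59. It measured 66.2, 185 and 396 FPKM in kidney, 1.48, 20.2 and 30.9 in heart and 3.86, 17.4 and 42.4 in liver. All kidney libraries exceeded the others, but in each tissue library 1 was far below library 3. Heart differed from kidney by −3.84 ± 1.09 (adjusted p = 0.012) and liver by −3.44 ± 1.09 (adjusted p = 0.020). The call against liver was lost after median ratio scaling, with a difference of −2.58 (adjusted p = 0.064).

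GOAT_ENSP00000264122 had far closer replicates. It encodes 983 residues on scaffold 863 (311125 to 530995, forward strand), with the match at residues 373 to 411. Its levels were 21.3, 20.1 and 18.6 FPKM in kidney, 2.53, 2.49 and 2.56 in liver and 1.18, 2.16 and 1.37 in heart. Heart differed from kidney by −3.04 ± 0.18 (adjusted p = 1.1e-06) and liver from kidney by −2.57 ± 0.18 (adjusted p = 3.4e-06).

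GOAT_ENSP00000420465, of 249 residues on scaffold 1368 (3355880 to 3356629, forward strand), had 3 hydrophobic stretches and the match at residues 20 to 67. It had 4.68, 5.19 and 8.11 FPKM in kidney and was listed at 0 in all heart and liver libraries, so no fold change is given. Low levels outside kidney were also measured for a member of 617 residues on scaffold 447, with 7.51 ± 1.36 FPKM in kidney, 0.344 ± 0.189 in heart and 0.360 ± 0.277 in liver. Heart differed from kidney by −2.66 ± 0.21 (adjusted p = 5.8e-06) and liver by −2.65 ± 0.21 (adjusted p = 6.0e-06).

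Of the 3 members with a PHD finger, one pair was similar in sequence and elevated in kidney. The proteins, of 783 residues on scaffold 1079 and 752 residues on scaffold 300, were 53.6% identical over 772 aligned positions, and their RING matches lay at residues 714 to 752 and 683 to 721. The first had 7.42 ± 3.64 FPKM in kidney, 0.212 ± 0.0797 in heart and 0.242 ± 0.0185 in liver. It exceeded 0.5 FPKM only in kidney and so passed the filter through that tissue alone. The second was expressed in all tissues, with 22.3 ± 1.00 FPKM in kidney, 7.14 ± 1.43 in heart and 8.76 ± 2.38 in liver. Heart differed from kidney by −2.71 ± 0.27 (adjusted p = 3.1e-05) in the first and by −1.53 ± 0.22 (adjusted p = 0.00030) in the second.

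Over the 40 kidney members, the smaller of the differences from the other tissues ranged from 0.52 to 3.44, with a median of 1.25. It was at least 2 in 7 members and under 1 in 13. The 40 include the 4 that passed the filter through kidney alone and so had to differ. Of those 4, GOAT_ENSP00000420465 and the PHD finger member of 783 residues on scaffold 1079 are among the 7. Kidney levels ranged from 1.51 to 216 FPKM with a median of 13.4. The member whose levels most resembled those of GOAT_ENSBTAP00000039949 over the 9 libraries was the one of 492 residues on scaffold 117 (r = 0.975), and for GOAT_ENSBTAP00000008785 it was the one of 474 residues on scaffold 1356 (r = 0.833). The RING match lay in the N-terminal part in 19 of the 40, in the middle part in 4 and in the C-terminal part in 17. Over the 17 heart members these counts were 9, 4 and 4.

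**Figure D4:**
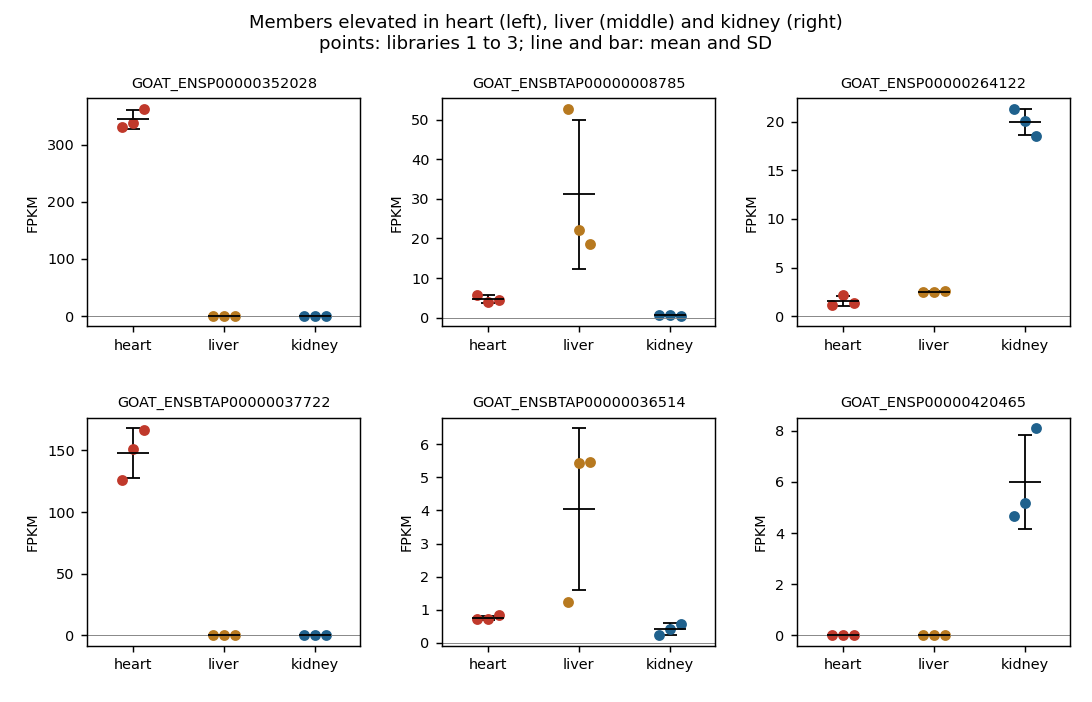
Levels in FPKM (vertical axis, linear) of 6 members in goat heart, liver and kidney (horizontal axis), for members elevated in heart (left), liver (middle) and kidney (right). Points are the 3 libraries of each tissue, and the line and bar are their mean and SD. GOAT_ENSP00000352028 reached 363 FPKM in heart and stayed below 1 FPKM in every other library, while GOAT_ENSBTAP00000008785 spread from 18.7 to 52.8 FPKM in liver.

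The elevated members were also counted by sequence class. Each class is small, no test was made on a class, and the shares over all tested models were 14.5% for heart, 9.59% for liver and 34.2% for kidney. The 31 members with a hydrophobic stretch included 28 that were tested, of which heart had 7 elevated (25.0%), kidney 7 (25.0%) and liver 2 (7.14%). After median ratio scaling, heart had 7 of the 28 elevated, kidney 3 and liver 6. The summed level of the 31 on deposited values was 877 to 933 FPKM in the heart libraries, 194 to 260 in liver and 267 to 436 in kidney. The groups did not overlap, and GOAT_ENSP00000352028 and its likes in heart made up much of the heart sum.

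Of the 24 B-box members, 13 were tested, and 5 were elevated in kidney (38.5%), 2 in heart (15.4%) and 0 in liver. After median ratio scaling, 1 of the 5 remained elevated in kidney. Higher levels in kidney than in liver were called for 8 of the 13 (61.5%, against 51.6% of all models), and higher levels in liver for 0. The summed level of the class was 159 to 630 FPKM in kidney, 79.2 to 144 in heart and 44.2 to 178 in liver, so kidney overlapped with liver. After that scaling, 3 were higher in kidney than in liver and 1 in liver.

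The 3 in-between-RING members each had a different pattern. Beside the one elevated in liver and the one elevated in heart, a member of 838 residues on scaffold 566 had 18.7 ± 2.86 FPKM in heart, 27.1 ± 3.17 in kidney and 4.60 ± 1.16 in liver, and was lowest in liver. Heart exceeded liver by 1.83 ± 0.21 (adjusted p = 7.1e-05). Its difference between heart and kidney, −0.51 ± 0.21, was not called (adjusted p = 0.054), but was with the library number as a block (adjusted p = 0.048).

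The tested BIR members (8 of 9) were divided among the tissues, with 3 elevated in heart, 2 in kidney and 1 in liver. After median ratio scaling these counts were 3 in heart, 1 in kidney and 2 in liver. The 3 with the BIR expression matched 3 times summed to 67.0 to 90.6 FPKM in kidney, 25.5 to 34.8 in heart and 28.4 to 40.5 in liver, and 2 of them were elevated in kidney. One of these encodes 327 residues on scaffold 247 and had 39.9 ± 6.05 FPKM in kidney, 10.1 ± 4.37 in heart and 8.82 ± 1.82 in liver. It alone among the BIR members remained elevated in kidney after that scaling. At the other extreme, the longest member of all, 3976 residues on scaffold 539 with 4 RING matches, had 1.71 ± 0.198 FPKM in heart. It was called elevated there, but exceeded 0.5 FPKM in no liver or kidney library and had passed the filter through heart alone.

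Of the 6 CCCH members, 4 were tested, and 3 of these were elevated in kidney and 0 in heart or liver. After median ratio scaling, 0 of the 3 remained elevated in kidney. The highest, 343 residues on scaffold 1429, had 14.6 ± 1.87 FPKM in kidney, 9.08 ± 0.975 in heart and 3.16 ± 0.826 in liver. It was 87.9% identical over 264 residues to a predicted model among the members, so reads may have been divided between them and its level is uncertain. Its difference of heart from kidney, −0.62 ± 0.20 (adjusted p = 0.021), moved to 0.0064 after median ratio scaling and was then not called. A member of 419 residues on scaffold 1386 was the exception, with 38.7 ± 2.21 FPKM in heart, 25.5 ± 8.10 in liver and 28.8 ± 1.63 in kidney.

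The calls were also counted by the place of the match. Of the 35 tested members with a C-terminal match, 21 were higher in kidney than in heart (60%) and 5 in heart (14.3%), and 9 were higher in heart than in liver (25.7%) and 9 in liver (25.7%). Of the 50 tested with an N-terminal match, 22 were higher in kidney than in heart (44.0%) and 10 in heart (20%), and 15 were higher in heart than in liver (30%) and 4 in liver (8%). The shares over all tested models were 45.3% and 17.9% for kidney and heart, and 29.6% and 19.6% for heart and liver. After median ratio scaling, 15 of the C-terminal members were higher in kidney than in heart and 7 in heart, and 16 of the N-terminal members were higher in each. No test of the difference between these positions was made.

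The levels of several members followed the library number in all 3 tissues. In 21 of the 101 tested members (20.8%), the 3 libraries fell in the same order of numbers in heart, liver and kidney, against 12.1% of all tested models. In 9 members (8.91%) library 3 averaged at least 1 log2 unit above library 1, and in 0 below it, against 5.16% and 1.61% of all models. The summed level of the members was also lowest in library 1 and highest in library 3 of each tissue, at 1491, 1592 and 1705 FPKM in heart, 676, 745 and 1039 in liver and 1165, 1571 and 2047 in kidney. Over all models the sums were 817234, 808954 and 828807 in heart and 574638, 581023 and 619613 in liver. In kidney they were 648510, 633873 and 591079. The factor of median ratio scaling was also lowest in library 1 of each tissue. It was 0.774, 0.941 and 0.939 in heart, 0.648, 0.746 and 0.904 in liver and 1.29, 1.51 and 1.46 in kidney. The members' sums are not adjusted for it. Whether a number stands for an animal, a day or a batch was not tested.

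Members with this pattern, chosen after their values were seen, included some of the highest. A member of 675 residues on scaffold 1069 (2581687 to 2587485, forward strand) had the highest mean level of any member in liver. It measured 2.93, 15.6 and 27.2 FPKM in heart libraries 1, 2 and 3, 7.68, 42.7 and 122 in liver and 18.4, 74.4 and 138 in kidney. Library 3 was 9.29, 15.9 and 7.48 times library 1 in these tissues. The library number held 65.1% of its variance and the tissue 33.5%.

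The spread that this left within each tissue bore on the tests. None of the 3 comparisons was called for that member. With the library number as a block, heart differed from liver by −1.56 (adjusted p = 0.00053) and from kidney by −2.26 (adjusted p = 6.0e-05), and liver from kidney by −0.71 (adjusted p = 0.019). A member of 477 residues on scaffold 542 behaved alike, with 1.35, 9.74 and 16.8 FPKM in heart, 5.51, 16.2 and 31.0 in liver and 11.4, 32.8 and 50.7 in kidney, and a number share of 62.8%. It was called in 0 comparisons without the block and in all 3 with it, at adjusted p = 0.0039, 0.00012 and 0.0060.

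The neighbours on scaffold 1062 showed the pattern together. The second of them, a B-box member of 477 residues from 81069 to 94740 on the reverse strand, was 58.6% identical to GOAT_ENSBTAP00000039949. It measured 0.340, 2.02 and 5.49 FPKM in heart, 0.199, 0.973 and 3.37 in liver and 5.81, 12.8 and 28.9 in kidney, lower than its neighbour in every library and in the same order. The r of the pair over 9 libraries was 0.961, over points that share tissue and number. With the block, the kidney calls of GOAT_ENSBTAP00000039949 against heart and liver had adjusted p of 1.7e-05 and 3.1e-05.

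A B-box member of 461 residues on scaffold 1146 had 5.42, 11.8 and 14.2 FPKM in heart, 6.76, 15.5 and 59.8 in liver and 16.1, 41.9 and 73.1 in kidney. It was called in 0 comparisons without the block, and in all 3 with it at adjusted p = 0.047 for heart against liver, 0.0014 for heart against kidney and 0.030 for liver against kidney. Smaller gradients were found in 492 residues on scaffold 117 and in 510 residues on scaffold 1623, where library 3 was between 2.25 and 4.00 times library 1 in each tissue. The block added calls of heart against kidney (adjusted p = 0.00052) and liver against kidney (adjusted p = 0.00053) for the first, and of heart against liver (adjusted p = 0.0044) and liver against kidney (adjusted p = 0.0012) for the second. A member of 535 residues on scaffold 1071 departed from the order in heart alone, at 21.4, 16.6 and 33.6 FPKM, and had 4.25, 5.95 and 22.5 in liver and 14.7, 35.6 and 118 in kidney. Its difference between heart and liver was called with the block alone (adjusted p = 0.018). The number share exceeded the tissue share in 8 members (7.92%), close to the 7.41% of all tested models.

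**Figure D5:**
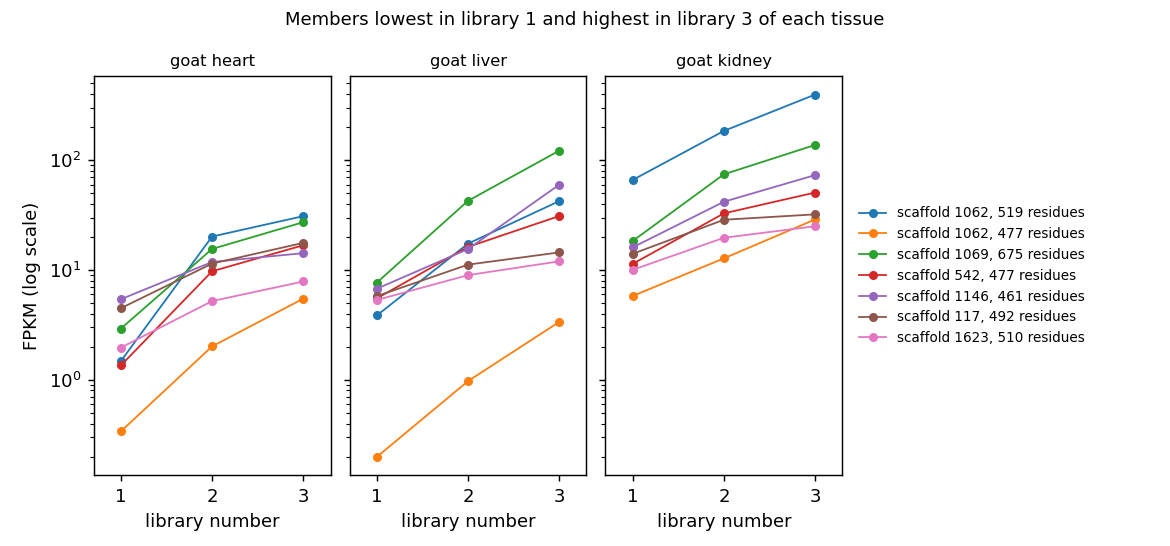
Level in FPKM (vertical axis, log scale) of 7 members in libraries 1, 2 and 3 (horizontal axis) of goat heart, liver and kidney. Each colour is 1 member, named by scaffold and protein length, and lines join the values of a member. In every panel each of the 7 is lowest in library 1 and highest in library 3, from 66.2 to 396 FPKM for the 519-residue member in kidney.

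With the library number as a block, the number of members called rose to 58 between heart and liver (background 56.5%), 78 between heart and kidney (background 69.3%) and 76 between liver and kidney (background 70.9%). Of the 15 members called in no comparison without the block, 9 were called in at least 1 with it. The same share was not taken over all models.

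Over all 101 tested members, tissue held a median of 86.7% of the variance and the library number 6.18%, against 86.0% and 5.87% over all tested models. Tissue held over 90% in 43 members (42.6%), near the 39.4% of all tested models. In 4 of the 15 with no comparison called, the 95% intervals of all 3 differences lay within 1 log2 unit of zero on deposited values. Each of the 4 was called in at least 1 comparison under an alternative, 2 after median ratio scaling and 2 with the block. The most even on deposited values, 1021 residues on scaffold 29, had 9.93 ± 1.31 FPKM in heart, 9.98 ± 0.702 in liver and 11.5 ± 3.06 in kidney, and its intervals lay between −0.64 and 0.46. After median ratio scaling its liver minus kidney difference was 0.66 (adjusted p = 0.033). In the other 11, an interval reached beyond 1 log2 unit, so differences of that size cannot be set aside.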

How the data were processed

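Per the labels, strand-specific (dUTP) messenger RNA libraries were made. The study's methods describe filtered reads mapped with TopHat and quantified with Cufflinks 2.2.1. The authors deposited goat values on the log2 scale, as log2(FPKM + 1) per gene and library, and FPKM was recovered from them. The methods name CHIR_1.0 as the goat genome and the submitters' processing notes list UMD3.1, a cattle build, so the build behind these values is uncertain. The deposited goat protein sequences, with positions, gave the members. Groups and numbers came from sample titles. Cattle and sheep tables were only counted. Per-sample columns not used: 0.

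The members and lists were chosen with earlier results of these data known. Members were named by a rule: in each comparison, up to 5 with the largest called log2 difference in each direction without overlap; in each tissue, up to 5 elevated and the 3 highest; those with the largest difference in each sequence class; and those listed at 0 in all libraries of one tissue and above 1 FPKM in all of another. Others are said to have been chosen after their values were seen or are given as neighbours or extremes. Gene-symbol lists and tissue markers fixed for this work could not be applied, since no table used here names goat models (0 matched the cattle reference table). A hydrophobic stretch was a window of 19 residues with mean Kyte-Doolittle hydropathy of 1.6 or more. Similar proteins were found with BLAST+ 2.17.0 (e-value 1e-05, over at least 50% of the longer protein).

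Fits used limma 3.58.1 (R 4.3.3), with tissue as the only term, moderated variances that follow the mean level, and 2-sided tests. They were run on simulated data in which libraries varied independently. That does not check the fit where libraries of the same number deviate together. Per the study's methods the libraries of a tissue come from separate animals, which the labels do not number. Deviations from tissue means correlated with r of 0.146 to 0.473 in the 9 pairs of libraries with the same number and −0.417 to 0.134 in the 18 with different numbers, so numbers were taken to pair libraries, and the value with number as a block is given beside a comparison described in the text where it changes the call. Alternatives were another pseudocount, other filters, scalings and fits, leaving out each library, and stricter RING expressions.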

Additional observations from a re-analysis of the deposited data

How the results depend on the processing

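The 3 counts of called members stayed within 1.5 times under every alternative run. With the library number as a block they were 58, 78 and 76, against 46, 67 and 65. Leaving out 1 library at a time gave 38 to 48, 61 to 72 and 58 to 69. The members elevated in heart, liver and kidney (17, 4 and 40) then numbered 16 to 18, 3 to 4 and 36 to 44. With the block they were 17, 6 and 50. Median ratio scaling gave 13 in liver (background 15.4%) and 18 in kidney (background 16.6%). Quantile normalization gave 12 and 19, and median ratio scaling with the block, chosen after the data were examined, gave 13 and 21. The study's filter, over 0.5 FPKM in over 80% of libraries, gave 9 in heart and 2 in liver, with fewer genes tested. A minimum log2 fold change of 1 gave 10 in heart. A single RING match gave 2 in liver, as did the common RING spacing, which was chosen after the data were examined. Except for median ratio scaling and the block, each alone, no share over all tested models is given for these settings. A changed count there is therefore not a result about the members in particular.

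Of 108 differences followed for 36 named members, 1877 of 2016 values under the alternatives kept their direction and side of the threshold, 75 lost the call, 51 gained it and 13 reversed. The reversals came with the scalings. The liver minus kidney difference of GOAT_ENSBTAP00000018136 became 0.83 (median ratio, with and without block) and 0.59 (quantile). That of 471 residues on scaffold 548 became 0.63 and 0.57, and that of 1697 residues on scaffold 1423 0.25 and 0.22. With median ratio scaling and the block, that of 419 residues on scaffold 1386 became 0.66, and the heart minus kidney difference of 431 residues on scaffold 859 0.35. That of 343 residues on scaffold 1429 became 0.0064, with and without the block. The cause was not tested. Depth is unknown, which limits what a value near 0 can show, and 3 libraries a tissue limit the precision.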
